A study of Mus musculus with 2 samples.

Results

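Reelin signalling was followed through 4 genes, *Reln*, *Lrp8*, *Vldlr* and *Dab1*, which were chosen by name among the 32285 genes counted in each cell. Single cells had been profiled with the 10x Genomics 3′ assay in the cortex of 2 wild-type mouse embryos at E16.5, numbered 4 and 5, with 1 library per embryo. The series names the embryos as EomesMllt3 controls of an *Eomes*-Cre line, the samples are labelled as brain hemispheres, and the strain is C57BL/6J. Both embryos carry the same label and received no treatment, so the comparisons were made between classes of cells within them.

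Reelin is a large secreted glycoprotein that Cajal-Retzius cells release in the marginal zone of the developing cortex. It binds ApoER2 (the product of *Lrp8*) and the VLDL receptor (the product of *Vldlr*), and Src family kinases then phosphorylate the adaptor Dab1 inside the receiving cell. In mice that lack reelin, Dab1 or both receptors, cortical neurons migrate but do not settle in their usual inside-out order of layers. Interneurons born in the ganglionic eminences are also known to express *Reln*, among them many somatostatin cells and cells of the caudal eminence.

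*Reln* (ENSMUSG00000042453) spans chr5:21884454-22344705 of GRCm38, 460252 bases on the minus strand, and *Dab1* (ENSMUSG00000028519) spans chr4:103619500-104744844, 1125345 bases. *Lrp8* (ENSMUSG00000028613, chr4:107802200-107876840) and *Vldlr* (ENSMUSG00000024924, chr19:27216480-27254231) are shorter, at 74641 and 37752 bases. The counts come from the 3′ ends of transcripts and it is not stated whether reads in introns were counted, so each gene was compared with itself across cells and never with another gene. The start regions of *Reln* and *Dab1*, the members with the widest range of levels between classes, are printed from RefSeq on GRCm38.p6, 250 bases before the start and 50 after it. Capitals mark CG pairs, the sites that DNMT1, the enzyme of the study, methylates.

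Reln, minus strand, chr5:22344656-22344955: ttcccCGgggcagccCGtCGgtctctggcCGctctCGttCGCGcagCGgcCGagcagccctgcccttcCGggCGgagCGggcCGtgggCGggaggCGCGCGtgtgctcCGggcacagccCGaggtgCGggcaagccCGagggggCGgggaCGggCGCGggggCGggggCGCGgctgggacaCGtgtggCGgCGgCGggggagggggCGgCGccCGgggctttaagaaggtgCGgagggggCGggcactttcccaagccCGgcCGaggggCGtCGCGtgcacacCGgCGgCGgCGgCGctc

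Dab1, plus strand, chr4:104367288-104367587: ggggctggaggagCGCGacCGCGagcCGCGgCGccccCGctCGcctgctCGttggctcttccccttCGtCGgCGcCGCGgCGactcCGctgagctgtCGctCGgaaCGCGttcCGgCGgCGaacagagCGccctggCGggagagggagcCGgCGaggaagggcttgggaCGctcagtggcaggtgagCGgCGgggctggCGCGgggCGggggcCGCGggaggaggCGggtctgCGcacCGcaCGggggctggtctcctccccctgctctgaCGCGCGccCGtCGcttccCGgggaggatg

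The *Reln* window holds 47 CG pairs, and 1.44% of 32851 mouse windows of this length hold as many. The *Dab1* window holds 46, matched by 1.65% of windows, and belongs to a start 748038 bases inside the gene. The other *Dab1* start holds 12, the 3 *Lrp8* starts hold 21, 5 and 4, and the 2 *Vldlr* starts hold 8 and 23, where the median window holds 7. These are properties of the reference sequence, and no methylation was measured in these samples.

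The libraries held 12825 barcodes with 124318613 UMIs (unique molecular identifiers, each marking 1 captured transcript) in embryo 4 and 12289 with 117679925 in embryo 5. After removal of barcodes with few genes, high mitochondrial counts or doublet profiles, 9932 and 10416 cells were kept, with medians of 10026.5 and 8825 UMIs. The libraries shared 46 barcode sequences, 27 of them among kept cells. Clustering without the 4 genes and a list of 38 further pathway genes gave 24 clusters, of which 17 were named from fixed markers. Names here mean "like" the type. The classes used below were Cajal-Retzius cells (73 cells in embryo 4 and 62 in embryo 5), radial glial cells (RGCs, 1258 and 1342), intermediate progenitors (IPCs, 921 and 953), migrating excitatory neurons (2125 and 2244), upper-layer neurons (684 and 801), layer 6 neurons (840 and 877), and interneurons with markers of the medial (MGE, 670 and 644) or caudal ganglionic eminence (CGE, 196 and 152). GABAergic neurons with markers of the lateral eminence (LGE-type, 546 and 508) were described but entered no comparison. All 8 Cajal-Retzius markers other than *Reln*, such as *Trp73*, *Lhx5* and *Ndnf*, were higher in that class than in the rest of both embryos, and summed to 3183 and 3443 counts-per-million (CPM, the UMIs of a gene scaled to the same total in every class) against 33.2 and 29.2. Of the 7 CGE markers, *Vip* was at 0 in both embryos. The 2 cycling or *Sst*-containing clusters led by haemoglobin genes scored as erythroid, but haemoglobin and *Alas2* summed to 31416 and 23123 CPM there, so most of their RNA was of another kind. No cluster could be named layer 5 or subplate, and 7 clusters with 2426 and 2635 cells stayed unnamed.

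Free RNA in a droplet gives counts in cells that do not make a transcript. The level of each gene in 2 non-neural populations was therefore set beside its level in neurons: mural cells of blood vessels (52 and 46 cells, median UMIs 10553 and 10408.5) and a cluster led by the microglial genes *Tyrobp*, *C1qa* and *C1qb* (62 and 39 cells). Mural cells held *Reln* at 3.35 CPM in embryo 4 and 1.95 in embryo 5, *Lrp8* at 16.7 and 11.7, *Vldlr* at 1.67 and 1.95, and *Dab1* at 23.4 and 60.4. The microglial cluster held *Reln* at 19.0 and 0 CPM, *Lrp8* at 34.2 and 16.4, *Vldlr* at 7.60 and 0, and *Dab1* at 45.6 and 82.2. Levels were read against the values of these populations in the same embryo.

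The ligand came first. Cajal-Retzius cells held *Reln* at 9597 CPM in embryo 4 and 11189 in embryo 5, about 1% of their UMIs. CGE interneurons followed at 574 and 596 CPM, MGE interneurons at 317 and 402, and LGE-type neurons at 211 and 203. The embryos' values of these 4 classes did not overlap. *Reln* in Cajal-Retzius cells was 16.7 times its CGE level in embryo 4 and 18.8 times in embryo 5, and 30.3 and 27.8 times its MGE level.

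Among excitatory cells, *Reln* was at 77.8 and 95.9 CPM in migrating neurons and at 45.9 and 69.4 in layer 6 neurons, above both non-neural populations. It was lower in IPCs, at 22.7 and 16.2 CPM, which is 6.79 and 8.30 times the mural level. The microglial cluster stood at 19.0 and 0. Upper-layer neurons (9.76 and 8.10 CPM) and RGCs (9.81 and 5.43) lay between the mural and the microglial values in embryo 4 and above both in embryo 5, at 2.92 and 4.15 times the mural level for upper-layer neurons and 2.93 and 2.79 times for RGCs. The mural level rests on 2 and 1 *Reln* UMIs. The order was therefore Cajal-Retzius, CGE, MGE, LGE-type, migrating, layer 6, IPC, and last upper-layer neurons and RGCs, whose values overlapped. In the haemoglobin-led clusters *Reln* stood at 81.9 and 111 CPM, beside *Sst* among their leading genes.

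**Figure D1:**
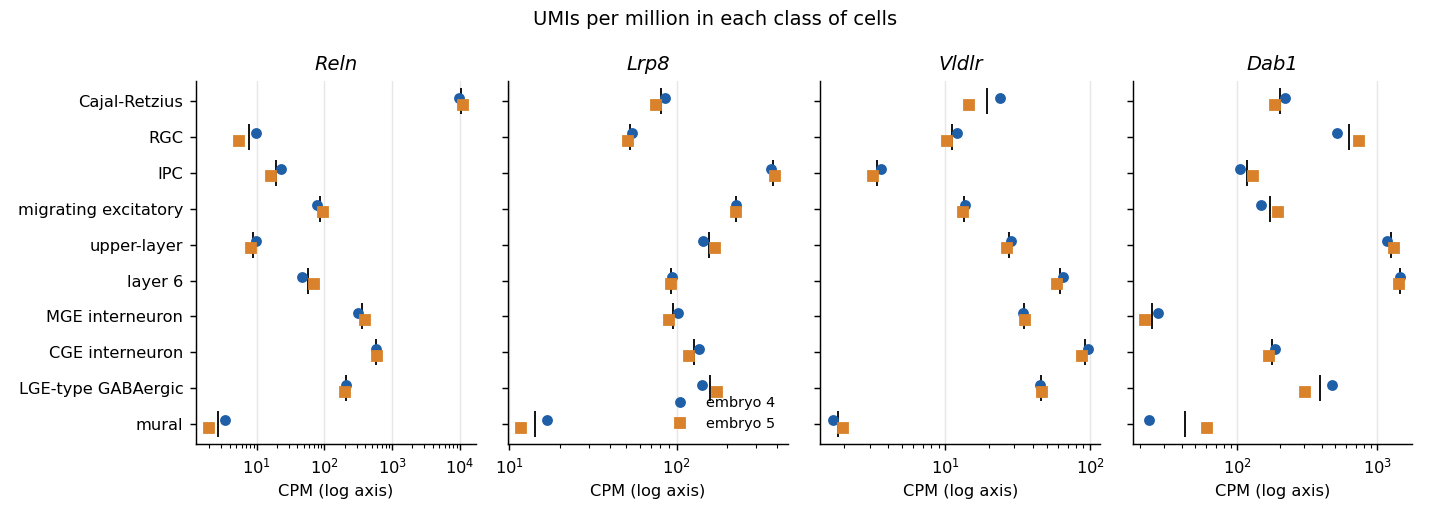
Level in CPM (log axis) of each gene in each class of cells, with circles for embryo 4, squares for embryo 5 and a bar for their mean. *Reln* peaked in Cajal-Retzius cells at 9597 and 11189 CPM, *Lrp8* in IPCs at 365 and 389, *Vldlr* in CGE interneurons at 96.0 and 87.7, and *Dab1* in layer 6 neurons at 1444 and 1434.

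Because Cajal-Retzius cells are rare, the source of the message was also counted in molecules. They made up 0.735% of the kept cells in embryo 4 and 0.595% in embryo 5, and held 61.8% (95% exact binomial interval 61.1 to 62.5) and 58.5% (57.8 to 59.3) of the *Reln* UMIs. Migrating neurons held 9.29% and 11.2%, MGE interneurons 8.53% and 10.9%, LGE-type neurons 5.45% and 4.30%, CGE interneurons 3.47% and 3.41%, and layer 6 neurons 2.86% and 4.25%. The unnamed clusters held 5.78% and 5.35% with 24.4% and 25.3% of the cells. The intervals cover counting error only, and the shares follow the cells that survived dissociation. In such data, fewer cells of a type and less RNA per cell cannot be told apart for a whole-tissue share.

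**Figure D2:**
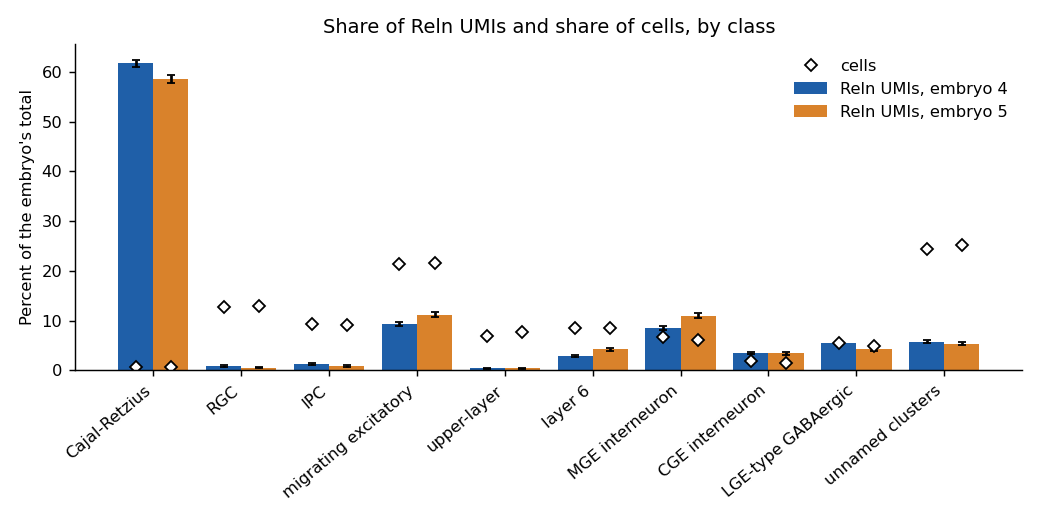
Share of each embryo's *Reln* UMIs (bars, with 95% exact binomial intervals) and of its cells (diamonds) in each class, in percent. Cajal-Retzius cells held 61.8% and 58.5% of the UMIs with under 1% of the cells, while migrating neurons held 9.29% and 11.2% with 21.4% and 21.5% of the cells.

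Within a class, *Reln* was spread over cells in different ways. Cajal-Retzius cells carried a median of 136 *Reln* UMIs in embryo 4 (range 6 to 521) and 146.5 in embryo 5 (5 to 297), so every one of the 73 and 62 cells had the transcript. In all other named classes the median cell had 0. A small number of *Reln*-rich cells, with at least 10 UMIs, held most of the message of the interneuron classes. In MGE interneurons 48 of 670 cells (7.16%) in embryo 4 and 59 of 644 (9.16%) in embryo 5 were *Reln*-rich and held 60.2% and 63.5% of the class's *Reln* UMIs. In CGE interneurons 20 of 196 (10.2%) and 21 of 152 cells (13.8%) held 71.0% and 74.5%. In migrating neurons 39 of 2125 (1.84%) and 45 of 2244 cells (2.01%) held 43.5% and 50.5%. No upper-layer neuron reached 10 UMIs in either embryo, 0 of 684 and 0 of 801 cells, which allows a share of up to 0.439% and 0.375% (3 counts).

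The *Reln*-rich cells were checked for Cajal-Retzius and GABAergic genes. In the MGE class they held 7 GABAergic genes such as *Gad1* and *Gad2* at a summed 1400 and 1386 CPM, against 1813 and 1671 in the other MGE cells. The 8 Cajal-Retzius markers summed to 101 and 101 against 66.8 and 50.8, with 6 and 7 of the 8 at 0 in *Reln*-rich cells. In the CGE class the GABAergic sum was 1985 and 1827 CPM in *Reln*-rich cells against 2425 and 2115 in the others. The Cajal-Retzius sum was 37.1 and 107 against 20.9 and 15.8, with 6 and 6 of the 8 at 0 in *Reln*-rich cells. LGE-type *Reln*-rich cells (21 and 16 cells) were 3.85% and 3.15% of their class and held 59.8% and 69.9% of its *Reln* UMIs. They differed, with Cajal-Retzius markers at 404 and 475 CPM against 133 and 105 in the rest of the class. Their GABAergic sum was 502 and 652 against 1672 and 2023. None of the 8 Cajal-Retzius markers was at 0 in them. Migrating *Reln*-rich cells held Cajal-Retzius markers at 237 and 128 CPM against 37.2 and 36.1 in the other migrating cells, with 4 of the 8 at 0 in each embryo. The Cajal-Retzius class itself stood at 3183 and 3443, and the part of mixed droplets in these values was not tested.

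Somatostatin interneurons are the cells the study is about, and they arise in the MGE. MGE cells with at least 1 *Sst* UMI (263 and 268 cells) held *Reln* at 479 CPM in embryo 4 and 624 in embryo 5, against 170 and 202 in MGE cells without one (407 and 376 cells). The cells with *Sst* made up 39.3% and 41.6% of the class, and *Sst* was detected in 4.85% and 2.14% of migrating neurons (median UMIs 9378 and 7938) and 0% and 8.70% of mural cells. MGE cells with *Sst* were deeper than the rest, with medians of 7950 and 7068 UMIs against 5415 and 5913. After thinning each cell to 2000 UMIs, *Reln* was found in 33.8% and 38.8% of cells with *Sst* and in 16.2% and 19.3% of those without. With the split itself made on the thinned *Sst* counts, a choice made after seeing the data, the shares were 37.5% and 42.9% with *Sst* and 18.0% and 20.9% without. The other 3 genes differed little along this split: *Lrp8* stood at 113 and 102 CPM with *Sst* and 91.2 and 78.6 without, *Vldlr* at 37.0 and 34.5 against 31.5 and 36.0, and *Dab1* at 20.8 and 23.6 against 32.4 and 20.4. Cells were split by a measured transcript, so these values are descriptions without a test.

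The share of cells with a transcript gave the same picture at equal depth. Thinned to 2000 UMIs, *Reln* was found in 100% of Cajal-Retzius cells, 27.4% and 34.9% of CGE, 23.2% and 27.5% of MGE, 15.2% and 11.96% of LGE-type and 8.20% and 8.89% of migrating cells, and in 0 of 52 and 0 of 46 mural cells, which allows shares of up to 5.77% and 6.52% (3 counts). *Lrp8* was found in 48.2% and 50.5% of IPCs, *Vldlr* in 16.8% and 19.2% of CGE interneurons, and *Dab1* in 82.3% and 77.5% of layer 6 neurons. In mural cells *Lrp8* was found in 1.92% and 0% and *Dab1* in 5.77% and 8.70%. *Dab1* in MGE interneurons, at 6.53% and 3.46%, lay at that level. Without thinning, the shares were 37.5% and 41.8% for *Reln* in MGE interneurons (median UMIs 6367.5 and 6325) and 33.7% and 47.4% in CGE interneurons (4228.5 and 5767).

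**Figure D3:**
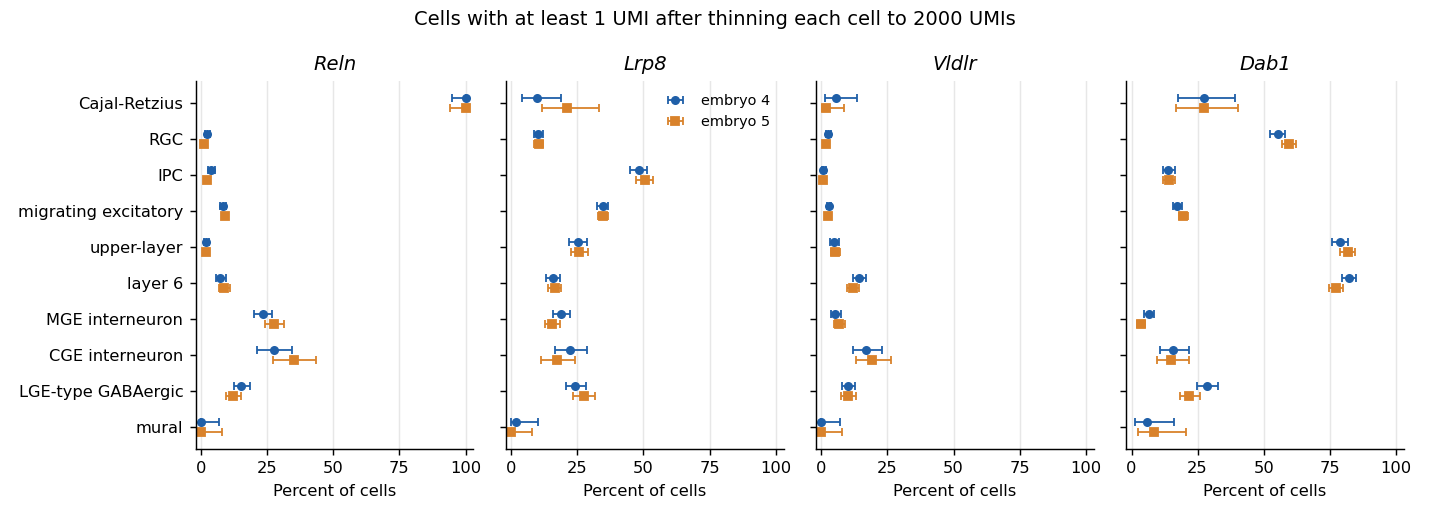
Percent of cells of each class with at least 1 UMI of each gene after thinning every cell to 2000 UMIs, with 95% exact binomial intervals, embryo 4 as circles and embryo 5 as squares. *Dab1* was found in 79.0% and 81.9% of upper-layer neurons but in 6.53% and 3.46% of MGE interneurons, while mural cells gave 5.77% and 8.70%.

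Of the receptors, *Lrp8* was highest in IPCs, at 365 CPM in embryo 4 and 389 in embryo 5. Migrating neurons followed at 227 and 227 CPM, and upper-layer neurons (143 and 169), LGE-type neurons (142 and 174) and CGE interneurons (135 and 119) lay close together. MGE interneurons (101 and 89.6), layer 6 neurons (93.7 and 92.1) and Cajal-Retzius cells (85.5 and 75.2) came next, the MGE and layer 6 values overlapping. RGCs held 54.0 and 51.2 CPM, 3.23 and 4.38 times the mural level, with the microglial cluster at 34.2 and 16.4. From RGCs to IPCs *Lrp8* was 6.76 and 7.60 times higher, and from IPCs to layer 6 neurons 3.90 and 4.23 times lower.

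*Vldlr*, the second receptor, had another order. CGE interneurons were highest at 96.0 and 87.7 CPM, followed by layer 6 neurons (65.1 and 58.7), LGE-type neurons (44.8 and 46.5), MGE interneurons (34.1 and 35.2) and upper-layer neurons (28.6 and 26.8). The values of neighbours in this part of the order did not overlap. Cajal-Retzius cells held 23.9 and 14.6 CPM, from only 26 and 12 UMIs. Migrating neurons stood at 13.7 and 13.2, RGCs at 12.02 and 10.3 and IPCs at 3.59 and 3.16. The IPC values were 2.15 and 1.62 times a mural level that rests on 1 UMI in each embryo. In embryo 4 the IPC value lay below the microglial level of 7.60 CPM. The IPCs, the class with the most *Lrp8*, thus held the least *Vldlr* of the neural classes described.

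*Dab1*, the adaptor that both receptors need, was highest in settled excitatory neurons. Layer 6 neurons held 1444 and 1434 CPM and upper-layer neurons 1177 and 1309. RGCs held 516 and 741 CPM and LGE-type neurons 471 and 302, the widest gaps between embryos seen for this gene among the neural classes. Cajal-Retzius cells (219 and 186), CGE interneurons (185 and 169), migrating neurons (147 and 195) and IPCs (104 and 129) followed. The migrating values overlapped those of Cajal-Retzius cells and of CGE interneurons, which did not overlap each other. MGE interneurons held 26.8 and 21.9 CPM, which is 1.15 and 0.363 times the mural level. That mural level rests on 14 and 31 UMIs. The microglial cluster held 45.6 and 82.2 CPM, and a fibroblast cluster of 49 cells in embryo 5 held 20.4. *Dab1* in MGE interneurons was thus not told apart from the non-neural values, and whether these cells express it was not tested. CGE interneurons held 6.90 and 7.69 times as much as MGE interneurons.

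In the excitatory lineage, RGCs give rise to IPCs, and the neurons these produce migrate through the intermediate zone before they settle in the cortical plate. The migrating class was made of 3 clusters, of which 1 was led by *Cdh8*, *Slc17a6* and *Neurod1* (840 and 861 cells) and 1 by *Nrp1* and *Rnd2* (864 and 864 cells). *Lrp8* was at 268 and 275 CPM in the *Cdh8*-led cluster and 197 and 192 in the *Nrp1*-led cluster, between the values of IPCs and upper-layer neurons. *Dab1* was at 38.0 and 39.6 CPM in the *Cdh8*-led cluster, between the 2 non-neural values in embryo 4 and below both in embryo 5, and at 214 and 248 in the *Nrp1*-led cluster. *Vldlr* was nearly level between them, at 11.6 and 10.1 against 13.0 and 11.2 CPM. *Lrp8* was higher and *Dab1* lower in IPCs and these 2 migrating clusters than in RGCs and settled neurons. Upper-layer neurons, with *Lrp8* at 143 and 169 CPM, came nearest to the migrating clusters in *Lrp8*. Over all 11 class means the 2 genes did not mirror each other (Pearson r 0.17). The third cluster, led by *Tfap2d* (421 and 519 cells), held *Reln* at 97.1 and 182 CPM and *Dab1* at 209 and 350, and its embryos differed more than those of the other 2.

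**Figure D4:**
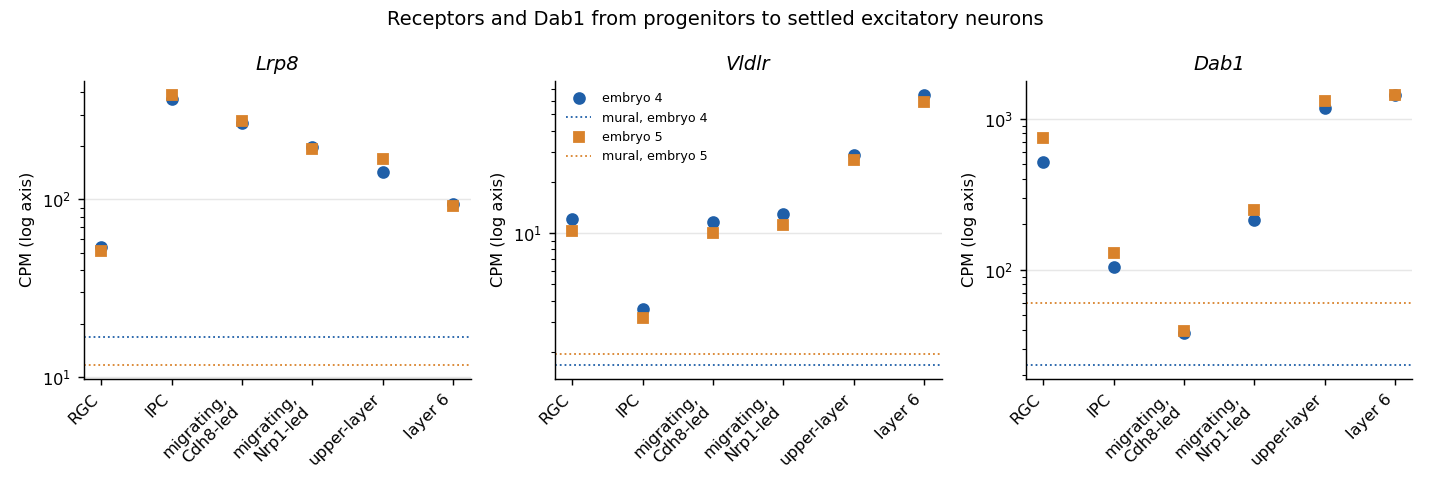
Levels of *Lrp8*, *Vldlr* and *Dab1* (CPM, log axis) in RGCs, IPCs, 2 clusters of migrating neurons named by their leading gene, and settled neurons. Circles are embryo 4, squares embryo 5, and dotted lines the mural level in each. *Dab1* was lowest in the *Cdh8*-led cluster, at 38.0 and 39.6 CPM, and *Lrp8* was highest in IPCs, at 365 and 389.

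High *Dab1* was also found in clusters that the markers could not name, so that their cell type is not given. A cluster led by *Ldb2* and *Rspo3* (798 and 863 cells) had the highest *Dab1* of all 24 clusters, at 1824 and 1912 CPM, with *Vldlr* at 42.5 and 44.1 and *Lrp8* at 93.6 and 99.9. One led by *Il1rapl2* and *Nr4a2* (330 and 396 cells) held *Dab1* at 1593 and 1511 and *Vldlr* at 71.7 and 60.5, close to layer 6 neurons. Clusters led by *Slit3* and *Crym* (453 and 459 cells) and by *Tafa1* (432 and 461) held *Dab1* at 732 and 896 and at 988 and 1170.

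Detection of a receptor and *Dab1* in the same cell was counted as well. Before thinning, a UMI of *Lrp8* or *Vldlr* together with one of *Dab1* was found in 77.4% and 67.7% of layer 6 neurons and 73.4% and 73.8% of upper-layer neurons. The share was 42.4% and 40.5% in RGCs, 31.6% and 28.0% in IPCs and 31.5% and 29.3% in migrating neurons. It was 7.16% and 5.28% in MGE interneurons, against 3.85% and 6.52% in mural cells. *Lrp8* without *Dab1* was found in 57.5% and 59.4% of IPCs and 48.6% and 47.0% of migrating neurons, but in 3.65% and 3.25% of upper-layer neurons. *Reln* and *Dab1* were found together in 74.0% and 56.5% of Cajal-Retzius cells, and in 27.4% and 27.4% after thinning. Every cell of that class had *Reln*, so these are the shares with *Dab1*. Depth differs between classes. After thinning, the receptor with *Dab1* was found in 22.6% and 19.3% of layer 6 and 1.67% and 0.472% of MGE cells. RGCs, at 6.70% and 7.09%, were then close to IPCs, at 6.30% and 6.04%.

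Differences between classes were tested on UMIs summed per class and embryo (22 sums of 11 classes), with edgeR's quasi-likelihood test and Benjamini-Hochberg adjustment over 15694 genes, and a gene was called at an adjusted p under 0.05. The classes were made from other genes of the same cells, so these p-values measure a class difference against the spread between the 2 embryos only. Of 24 differences, 4 genes in 6 comparisons, 21 were called. Where a comparison uses the mean of several classes, this is the mean of their log2 levels. A fold against such a mean can differ from the fold against the mean CPM, since classes with low levels weigh more on the log scale. In comparisons of cell types many genes are called, and the share of all genes called is given with each.

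Cajal-Retzius cells were compared with the mean of the interneuron, migrating and settled classes, where 18.1% of all genes were called higher and 18.3% lower. *Reln* was 90.3 times higher (log2 fold change 6.50 ± 0.12, SE, edgeR adjusted p = 1.99e-20) and ranked 82 from the top of 15694 genes. That fold is against a mean of log2 levels that includes upper-layer neurons at 9.76 and 8.10 CPM. Against CGE interneurons, the highest class of the mean, *Reln* was 16.7 and 18.8 times higher. The genes for receiving the signal were lower than this mean. *Lrp8* fell by 0.93 ± 0.12 on the log2 scale (adjusted p = 2.98e-06), *Vldlr* by 1.14 ± 0.18 (adjusted p = 1.95e-05) and *Dab1* by 0.61 ± 0.19 (adjusted p = 0.0135). Only *Lrp8* lay below every class of the mean in both embryos. *Dab1* was 8.15 and 8.46 times its MGE level and 1.18 and 1.10 times its CGE level. Its values of 219 and 186 CPM overlapped those of migrating neurons (147 and 195) and lay below both settled classes. *Vldlr* (23.9 and 14.6 CPM) lay above migrating neurons (13.7 and 13.2). Over 14 other settings of the analysis the log2 fold change ran from -1.41 to -0.49 for *Dab1* and from -1.81 to -0.84 for *Vldlr*, and both stayed called.

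Interneurons, the mean of MGE and CGE classes, were compared with migrating and settled excitatory neurons, where 16.4% of all genes were called higher and 20.3% lower. *Reln* was 11.9 times higher in interneurons (log2 3.57 ± 0.14, adjusted p = 1.86e-15) and *Dab1* 11.2 times lower (log2 -3.48 ± 0.16, adjusted p = 4.15e-14). Both changes exceeded those of most genes, with 3.52% and 3.73% of genes changed more in either direction. *Vldlr* was 1.82 times higher (log2 0.86 ± 0.08, adjusted p = 1.38e-08) and *Lrp8* 1.47 times lower (log2 -0.56 ± 0.08, adjusted p = 4.70e-06). The 2 receptors thus moved in opposite directions, though *Vldlr* was carried by the CGE class, and its MGE level of 34.1 and 35.2 CPM lay below that of layer 6 neurons. For *Dab1* the MGE class was far the lower, at 26.8 and 21.9 CPM, while the CGE values of 185 and 169 lay among those of migrating neurons (147 and 195). With doublets kept the *Dab1* difference was smaller, at log2 -2.16.

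Settled excitatory neurons, the mean of upper-layer and layer 6 classes, were compared with migrating ones, where 17.1% of genes were called higher and 18.8% lower. The upper-layer class is not fully apart from migrating cells. Its own markers averaged log2 1.20 against all other cells, the migrating markers 0.37 and the later migrating markers alone 0.81. Of 6 upper-layer markers, 5 were higher in this class than in the rest of both embryos. *Dab1* was 8.24 times higher (log2 3.04 ± 0.19, adjusted p = 2.13e-11) and ranked 118 from the top. *Vldlr* was 3.23 times higher (log2 1.69 ± 0.10, adjusted p = 4.20e-12). *Lrp8* was 1.79 times lower (log2 -0.84 ± 0.08, adjusted p = 3.94e-08) and *Reln* 3.64 times lower (log2 -1.86 ± 0.18, adjusted p = 2.15e-08). The *Reln* mean covers unlike classes, since layer 6 neurons held 0.590 and 0.724 times the migrating level and upper-layer neurons 0.125 and 0.0844 times. The *Reln* difference ran from log2 -1.89 to -0.64 over the 14 other settings, and its call was lost with doublets kept (log2 -0.80, edgeR adjusted p = 0.157). The *Dab1* difference was log2 2.14 with barcodes of at least 500 genes kept and stayed called. Without the *Tfap2d*-led cluster in the migrating class the 4 differences kept their direction and their calls.

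Migrating neurons against progenitors, the mean of RGCs and IPCs, gave 30.1% of genes higher and 28.8% lower. *Reln* was 7.74 times higher (log2 2.95 ± 0.18, adjusted p = 2.14e-12), *Vldlr* 2.38 times (log2 1.25 ± 0.11, adjusted p = 2.76e-09) and *Lrp8* 1.76 times (log2 0.81 ± 0.08, adjusted p = 2.16e-08). The *Reln* value was log2 2.08 when the listed genes were allowed in the clustering. The *Vldlr* rise was mostly over IPCs (3.59 and 3.16 CPM), since migrating neurons (13.7 and 13.2) lay close to RGCs (12.02 and 10.3). For *Lrp8* the mean covers both orders. Migrating neurons (227 and 227 CPM) lay above RGCs (54.0 and 51.2) and below IPCs (365 and 389). The value of 1.76 is thus a fold over the mean of log2 levels and over neither class itself. For *Dab1* the mean also covers both orders. Migrating neurons held 1.41 and 1.52 times the IPC level of *Dab1* but lay below RGCs in both embryos. Against the mean, *Dab1* was 1.45 times lower (log2 -0.54 ± 0.17, adjusted p = 0.00968), and this depended on how cells were chosen. It was higher with barcodes of at least 500 genes kept (log2 0.85, adjusted p = 0.000146) and not called with a minimum of 2000 genes (log2 -0.11, adjusted p = 0.674), with doublets kept (log2 -0.28, adjusted p = 0.555) or with at most 5% mitochondrial counts (log2 -0.40, adjusted p = 0.0560).

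Between MGE and CGE interneurons 3.68% of genes were called higher in MGE and 3.53% lower. *Dab1* was 6.94 times lower in MGE cells (log2 -2.79 ± 0.26, adjusted p = 1.03e-07), with the MGE level within the range of the non-neural clusters. *Vldlr* was 2.54 times lower (log2 -1.34 ± 0.14, adjusted p = 3.32e-07). With doublets kept the *Dab1* difference was in the other direction and not called (log2 0.50, adjusted p = 0.733). *Reln* stood at log2 -0.64 ± 0.20 (adjusted p = 0.0545) and *Lrp8* at -0.35 ± 0.13 (adjusted p = 0.142), neither called. With the embryo as a block, which pairs the sums of 1 animal, *Reln* was called lower in MGE cells (log2 -0.64, adjusted p = 0.0164).

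Layer 6 neurons were compared with upper-layer neurons, where 18.8% of genes were called higher and 16.3% lower. *Reln* was 6.87 times higher in layer 6 (log2 2.78 ± 0.25, adjusted p = 8.60e-09), against upper-layer levels of 9.76 and 8.10 CPM. *Vldlr* was 2.38 times higher (log2 1.25 ± 0.11, adjusted p = 3.14e-09) and *Lrp8* 1.58 times lower (log2 -0.66 ± 0.10, adjusted p = 2.71e-05), so the receptors moved in opposite directions here as well. *Dab1* differed by log2 0.30 ± 0.19 (adjusted p = 0.238) and was not called, and ran from -0.29 to 0.53 over the other settings. The *Reln* difference was log2 1.06 with barcodes of at least 500 genes kept. The *Vldlr* difference was at most log2 0.60 in 4 further settings, still called, and turned to log2 -0.21 (adjusted p = 0.186) when the 4 genes and the pathway list were allowed among the clustering genes, and the *Lrp8* call was lost with barcodes of at least 500 genes (log2 -0.29, adjusted p = 0.0814).

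**Figure D5:**
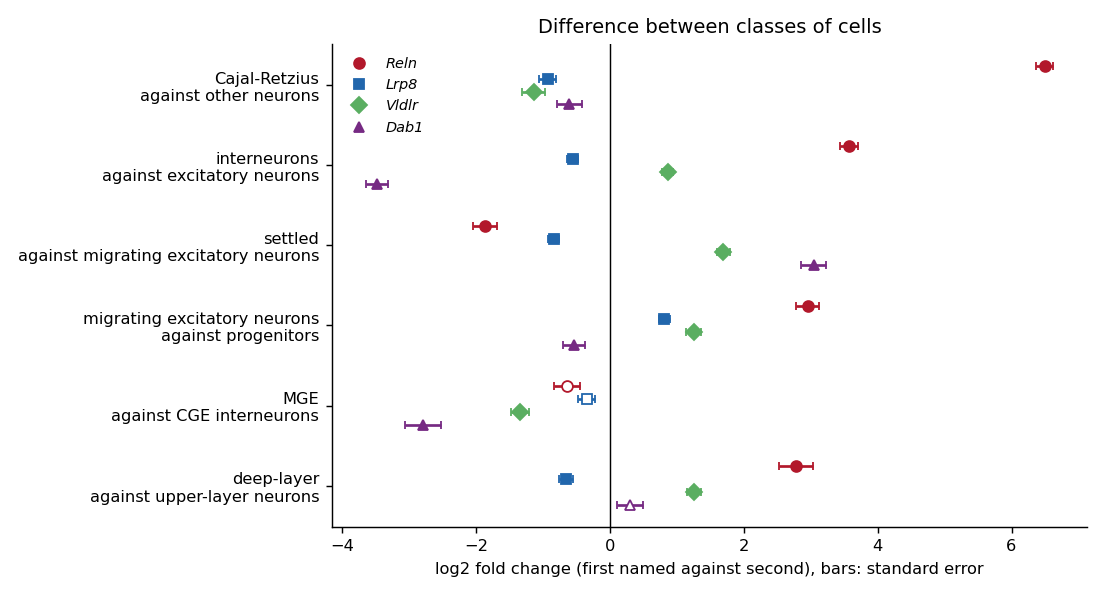
Log2 fold change of each gene in the 6 comparisons, with standard errors, filled symbols for an adjusted p under 0.05 and open symbols otherwise. *Reln* reached 6.50 in Cajal-Retzius cells, *Dab1* -3.48 in interneurons and 3.04 in settled neurons, and *Vldlr* and *Lrp8* had opposite signs in 3 of the 6 comparisons.

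The other genes of the pathway were taken from the list, of which 37 were tested. Of these, 3 were higher and 12 lower in Cajal-Retzius cells (18.1% and 18.3% of all genes), 7 and 11 in interneurons (16.4% and 20.3%) and 5 and 8 in settled neurons (17.1% and 18.8%). In migrating neurons against progenitors 20 were higher and 10 lower (30.1% and 28.8% of all genes), in MGE against CGE cells 3 and 4 (3.68% and 3.53%), and in layer 6 neurons 6 and 13 (18.8% and 16.3%). The median log2 fold change of the list lay between -0.14 and 0.33 over the 6 comparisons, and that of all genes between -0.06 and 0.03. Among kinases and adaptors, which include *Fyn* and *Crk*, 5 of 8 were lower in Cajal-Retzius cells and 1 higher, where 18.3% and 18.1% of all genes were, and 6 of 8 were higher in migrating neurons than in progenitors, where 30.1% of all genes were.

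The list also held proteins that act outside the cell, among them proteases. *Adamts3*, a protease that cleaves reelin near its N terminus, was at 529 and 521 CPM in layer 6 and 116 and 127 in upper-layer neurons, against 31.3 and 35.7 in migrating neurons and 8.27 and 4.85 in Cajal-Retzius cells. It was higher in settled than migrating neurons (log2 2.99 ± 0.11, edgeR adjusted p = 5.52e-15) and in layer 6 than upper-layer neurons (log2 2.20 ± 0.11, adjusted p = 8.55e-13). It was lower in Cajal-Retzius cells than other neurons (log2 -3.36 ± 0.28, adjusted p = 2.70e-09), in interneurons than excitatory neurons (log2 -2.89 ± 0.12, adjusted p = 6.12e-15), and in MGE (6.16 and 3.50 CPM) than CGE cells (75.4 and 71.0; log2 -3.84 ± 0.24, adjusted p = 1.52e-10). *Adamts2*, a related protease, had the opposite layer pattern at lower levels, 31.3 and 37.6 CPM in upper-layer neurons against 0.760 and 0.726 in layer 6 (log2 -5.41 ± 0.41, adjusted p = 5.60e-10). It stood at 13.5 and 15.7 CPM in migrating neurons, higher than in progenitors (log2 3.76 ± 0.30, adjusted p = 3.52e-10). The mean of the settled log2 levels lay below migrating neurons (log2 -1.44 ± 0.30, adjusted p = 0.000576). This came from layer 6 alone, since *Adamts2* in upper-layer neurons lay above its migrating level in both embryos. In interneurons it was lower than in excitatory neurons (adjusted p = 2.14e-05) from levels of 0 to 0.980 CPM, too few counts for a fold.

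*Thbs1*, an extracellular matrix protein, was at 54.1 and 57.4 CPM in MGE interneurons and at 0.980 and 1.11 in CGE interneurons (log2 5.78 ± 0.48, adjusted p = 3.98e-08), and higher in interneurons than excitatory neurons (log2 3.93 ± 0.84, adjusted p = 0.000870). No *Thbs1* UMI was found in Cajal-Retzius cells, which puts it at least 35.5 times lower than in MGE interneurons (floor of 3 counts over both embryos). It was called lower there than in other neurons (adjusted p = 0.0436). Outside the MGE class the compared classes held at most 1.11 CPM, under the floor of 1.57, so the 0 separates Cajal-Retzius cells from MGE interneurons only. *Thbs1* was also lower in migrating neurons than progenitors (log2 -2.60 ± 0.40, adjusted p = 1.31e-05). *Pcsk6*, a proprotein convertase, was sparse, at 7.81 and 10.7 CPM in RGCs and 0.0496 and 0.272 in migrating neurons (log2 -3.13 ± 0.63, adjusted p = 0.000287). It was at 3.96 and 3.03 CPM in MGE cells and found in no CGE count, at least 2.24 times lower (adjusted p = 0.0318), and also called higher in layer 6 neurons (0.950 and 0.726 CPM) than upper-layer neurons (0.143 and 0.137; adjusted p = 0.0217), on few counts.

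Of the genes inside the receiving cell, *Cdk5r1*, the activator of the kinase Cdk5, rose from 10.8 and 8.11 CPM in RGCs to 138 and 132 in migrating neurons (against progenitors log2 3.05 ± 0.11, adjusted p = 3.66e-16). *Pik3r1*, a regulatory subunit of PI3 kinase, was lower in MGE (30.6 and 32.4 CPM) than CGE interneurons (136 and 121; log2 -1.97 ± 0.17, adjusted p = 4.01e-08). *Mylip*, a ubiquitin ligase that lowers lipoprotein receptors, was higher in settled than migrating neurons (log2 1.33 ± 0.27, adjusted p = 0.000405), from 1.64 and 2.72 CPM to at most 6.32. Its level in mural cells was 63.6 and 37.0 CPM. *Nectin1*, an adhesion molecule of Cajal-Retzius cells, was at 116 and 99.5 CPM there (log2 1.63 ± 0.13 against other neurons, adjusted p = 1.46e-09) and higher in interneurons than excitatory neurons (log2 1.33 ± 0.10, adjusted p = 4.78e-10). *Rnf7*, part of the ligase complex that degrades Dab1, was higher in Cajal-Retzius cells (log2 0.77 ± 0.11, adjusted p = 9.02e-06). Of the 5 tested genes listed for receptor and Dab1 turnover, 1 was higher and 1 lower there. The lower was *Cul5* (log2 -0.42 ± 0.11, edgeR adjusted p = 0.00511). The ephrins *Efnb1* (settled against migrating, log2 -0.72 ± 0.09, adjusted p = 2.30e-06) and *Efnb2* (layer 6 against upper-layer, log2 -1.42 ± 0.15, adjusted p = 1.32e-07) were lower in the later or deeper class.

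Over the 11 class means, the pattern of log2(CPM + 10) most like each gene was sought among all genes outside the list. For *Reln* these were *Brap*, *6430571L13Rik* and *A830052D11Rik* (Pearson r 0.97, 0.96 and 0.96), of which the last 2 stayed below 8 CPM, so that their likeness rests on the Cajal-Retzius class. For *Lrp8* they were *Ago1*, *Lrp8os2* and *Fem1c* (0.97, 0.97 and 0.95). *Lrp8os2* is an antisense gene inside *Lrp8*, and since the use of strand in counting is not stated its reads and those of *Lrp8* may not be separate. For *Vldlr* they were *Tle2*, *Syngr1* and *Mzf1* (0.93, 0.93 and 0.93) and for *Dab1* *Fat4*, *Mapk11* and *Snx10* (0.91, 0.84 and 0.84). Among the 4 genes themselves r ran from -0.18 (*Reln* and *Dab1*) to 0.43 (*Reln* and *Vldlr*). These class means come from shared libraries, and the values are descriptions.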

How the data were processed

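The libraries were made with the 10x Genomics single-cell 3′ v3.1 kit from papain-dissociated cortex of embryos 4 and 5. The authors deposited raw UMI counts per gene and barcode, 1 matrix per embryo. The submitters' processing notes name Cell Ranger 7.0.0 and mm10 (GRCm38), and the file header names Cell Ranger 7.1.0. Whether intron reads were counted is not given in the sources used here.

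Barcodes with under 1000 detected genes (1772 and 765) or over 10% mitochondrial counts (174 and 56) were left out, and so were the highest doublet scores after Scrublet's procedure (947 and 1052). Counts were scaled to 10000 per cell, and cells were grouped by the Leiden method at resolution 1 on a graph of 20 neighbours, built from 30 principal components of 2000 variable genes (scikit-learn 1.9.0, leidenalg 0.10.2, Python 3.11.15). The 4 genes and the 38 listed pathway genes were kept out, and 1 of the listed genes is not reported here. To name a cluster, each marker's CPM inside it was divided by that in all other cells, after adding 10 to both, and the log2 values were averaged over the list. A name needed a ratio of at least 0.5, a margin of 0.25 and 3 markers detected in 10% of cells. This scoring rule was set after the clusters were seen, and the 4 genes and the lists were chosen with earlier results of these data known. The newborn and later migrating marker lists could not separate clusters and were merged into 1 class.

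UMIs were summed per class and embryo where both embryos had at least 20 cells, and tested in 1 fit with edgeR 4.0.16 (TMM, filterByExpr, quasi-likelihood, R 4.3.3), with Benjamini-Hochberg adjustment. Each standard error was obtained by dividing the log2 fold change by the root of the F statistic. Simulated counts with known changes were used to check the test. Sums with the same number come from the same embryo, which pairs them. Their embryo differences correlated between classes at 0.030 to 0.226 (median 0.092) across 15694 genes. Genes named from the list were the 2 with the largest positive and the 2 with the largest negative log2 fold change among those called in each comparison. Alternatives were a replicate block, DESeq2 1.42.0 and its size factors, no filter, each embryo alone, other limits on genes, mitochondrial counts and doublets, other resolutions, and the listed genes allowed in the clustering. Leaving out the *Tfap2d*-led or the haemoglobin-led clusters, and adding 2 unnamed clusters as settled neurons, were chosen after seeing the data. Binomial intervals are exact, at 95%. Start regions were counted in the RefSeq table for GRCm38.p6, where all 4 genes matched.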

Additional observations from a re-analysis of the deposited data

Results flagged for a closer look

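The barcodes left out for having under 1000 detected genes were used in no comparison and held all 4 genes above the level set by 3 counts, the most that a count of 0 allows. In embryo 4, 1772 such barcodes held *Reln* at 139 CPM, *Lrp8* at 93.6, *Vldlr* at 20.1 and *Dab1* at 270. In embryo 5, 765 barcodes held *Reln* at 44.6 CPM, *Lrp8* at 42.5, *Vldlr* at 12.5 and *Dab1* at 173. The limits were 1.51 CPM in embryo 4 and 2.09 in embryo 5. Each gene was higher in embryo 4 than in embryo 5, from 277 against 64 *Reln* UMIs and 537 against 249 *Dab1* UMIs, and what these barcodes hold was not tested.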

How the results depend on the processing

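Of the 24 differences, 17 kept their direction and their side of the threshold under all 14 alternatives, and the others are given here. *Reln* in MGE against CGE interneurons (log2 -0.64, adjusted p = 0.0545) was called with a replicate block (-0.64), DESeq2 size factors (-0.67), no filter on low counts (-0.61), Leiden resolution 0.6 (-0.65) or 2 (-0.64), at least 500 detected genes (-0.65), the listed genes in the clustering (-0.64), the *Tfap2d*-led cluster left out (-0.64) and the *Ldb2*-led and *Nr4a2*-led clusters added (-0.63), with adjusted p from 2.79e-05 to 0.474 over all alternatives. With doublets kept, *Reln* in settled against migrating neurons (-0.80) and *Dab1* in migrating neurons against progenitors (-0.28) were not called, and *Dab1* in MGE against CGE cells turned to 0.50. *Dab1* in migrating neurons against progenitors turned to 0.85 at 500 genes, and was not called at 2000 genes (-0.11) or 5% mitochondrial counts (-0.40). In layer 6 against upper-layer neurons *Lrp8* was not called at 500 genes (-0.29), *Vldlr* turned to -0.21 with the listed genes in the clustering, and *Dab1* was called with no filter (0.30) and at resolution 0.6 (0.53) and was below 0 and not called in 4 alternatives (lowest -0.29). The cause of these shifts was not tested.

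With 1 embryo left out there is no test, and all 24 values kept their direction. The widest ranges were 2.50 to 3.49 for *Reln* in migrating neurons against progenitors, 2.33 to 3.18 for *Reln* in layer 6 against upper-layer neurons and -1.56 to -0.90 for *Vldlr* in Cajal-Retzius cells. The narrowest ran from 6.50 to 6.50 for *Reln* in Cajal-Retzius cells, 3.56 to 3.60 for *Reln* in interneurons, 0.81 to 0.82 for *Lrp8* and -0.54 to -0.53 for *Dab1* in migrating neurons against progenitors. The block changed 1 of the 24 calls and no count of calls by over 1.5 times. Genes called lower in MGE cells numbered 554, and 291 with doublets kept. Genes higher in layer 6 numbered 2943, against 1913 at resolution 2, 1760 at 500 genes and 1656 with the listed genes in the clustering, and genes lower 2558, against 1474 at 500 genes and 1595 with the listed genes. Of the pathway list, the 3 genes higher in Cajal-Retzius cells became 6 or 7 with DESeq2, its size factors or 2000 genes, and the 5 higher in settled neurons became 8 to 13 in 8 alternatives. The 8 lower in settled neurons became 13 with the listed genes in the clustering, and the 4 lower in MGE cells became 2 with doublets kept. In layer 6 neurons the 6 higher became 2 with doublets kept and 1 with the listed genes in the clustering, and the 13 lower became 6 to 8 in 5 alternatives. Cajal-Retzius cells held 60.2% of *Reln* UMIs as a mean of embryos, 60.9% with doublets kept and 58.8% at 500 genes, while migrating neurons held 10.2%, 6.06% and 10.6%. With 2 embryos, 26 and 12 *Vldlr* UMIs in Cajal-Retzius cells and 98 mural cells in all, small differences and low shares are not resolved.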
